A study of Homo sapiens with 6 samples.

Results

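The genes described here are 49 regulators of mitosis. They are CDK1 with its cyclins and Cks subunits, the kinases and phosphatases that switch CDK1 on and off, and polo, Aurora and NEK kinases. Others belong to the chromosomal passenger complex, the spindle assembly checkpoint, and the anaphase-promoting complex (APC/C) with its regulators and substrates. All 49 were chosen by symbol, as a list of names, out of 19775 genes that have an array feature of their own. The list, its roles and its classes were set with earlier results of these data known, so the shares called below are descriptive. Each gene was read from its brightest probe set (a group of short oligonucleotides for 1 transcript) annotated with that gene alone. Of the 49 genes, 48 were measured. ANAPC1, a core APC/C subunit, has no probe set annotated with it alone and was not analysed here.

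The cells were WM-266.4, an established line from a melanoma metastasis, profiled on Affymetrix HG-U133 Plus 2 arrays. In the siPIR group they were transfected with 200 pmol of a pool of 4 siRNA duplexes against PIR, the gene of pirin, an iron-binding nuclear protein. The siCTR group received the same amount of a pool of 4 non-targeting duplexes of another product line (ON-TARGETplus, against siGENOME for PIR), and the NO group went through the Oligofectamine procedure without any oligonucleotide. All groups were transfected in serum-free medium 24 h after seeding and were harvested 72 h later. Equal amounts of RNA from 3 extractions were mixed into 1 pool for each group, and each pool was hybridised to 2 arrays. The 2 arrays are repeat measurements of the same mixture, so every group is n = 1 and no difference between 2 pools has a replicate of the biology behind it. The knock-down was transient and in 1 cell line.

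Arrays of all pools had the same scaling, with median signals of 67.0 to 71.3 for siPIR and 64.2 to 74.8 for the controls. PIR itself gave signals of 392 and 382 in siPIR, 13544 and 13179.9 in siCTR, and 13990.2 and 14153 in NO, a log2 difference of -5.09 from siCTR and -5.17 from NO. Of 6 melanocyte markers with a probe set, all 6 were measured on these arrays, at signals of 5692 to 40133. Of 3 keratinocyte, 3 leukocyte and 3 endothelial markers with a probe set, 0, 1 (CD14) and 1 (PECAM1) were measured. Of 5 fibroblast markers 3 were measured (COL1A1, COL1A2 and LUM), and DCN and PDGFRB were below the measurement limit. Nearly all of the list's summed signal came from COL1A2. That sum was 22937 to 23873 on siPIR arrays, 14605 to 15782 on siCTR arrays and 12596 to 12706 on NO arrays, and its part in the results was not tested. The leukocyte sum was 322 to 362, 180 to 181 and 129 to 194 on the arrays of siPIR, siCTR and NO, and its part was likewise not tested. For ACTB the 3' signal divided by the 5' signal, a sign of RNA quality, was 1.13 on both siPIR arrays and 1.23 to 1.27 on control arrays, and its part was not tested either.

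Entry into mitosis is driven by CDK1 bound to cyclin A or cyclin B. WEE1 and PKMYT1 hold this kinase back by phosphorylating it, and CDC25 phosphatases release it. The spindle checkpoint then keeps the APC/C, a ubiquitin ligase, from its coactivator CDC20 until every chromosome is attached to the spindle, after which the APC/C marks securin and cyclin B for destruction. Most transcripts of this system are periodic: they are made late in the cell cycle and are scarce in cells that do not divide. Core APC/C subunits are made throughout the cycle, and their complex is switched by its coactivators, which sets them apart as a constant reference among the same proteins.

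Periodic mitotic transcripts were lower in the siPIR pool, while core APC/C subunits differed by less than 2-fold between pools, with medians near 0. Here lower or higher is called where 2 pool means are at least 2-fold apart (a log2 difference of 1 or more in size) and their arrays do not overlap. Such a call weighs the difference against repeat hybridisation only and is no test of the treatments. By it, 31 of the 48 measured genes were lower in siPIR than in siCTR, where 4.21% of all 13053 measured genes were, and 28 were lower than in NO, where 5.4% were. Against both controls 27 genes were called lower, or 56.2%, beside 3.2% of all measured genes. None of the 48 was called higher in either comparison (0 genes, beside 3.66% and 3.6% of all genes). Of the 48 genes, 44 had a negative difference from siCTR and 44 from NO, beside 45.4% and 47.1% of all measured genes, and the arrays of the pools did not overlap for 46 and 45, beside 66% and 70.3%. All 27 called genes were among the 40 genes of the periodic class. Its median difference was -1.59 from siCTR and -1.36 from NO on the log2 scale. That class is every member outside the 5 core APC/C genes and 4 genes with little known periodicity. Earlier results of these data were known when it was drawn, so where the calls fall is no test of periodicity. The 4 measured core APC/C subunits had medians of -0.10 and -0.07, and all measured genes 0.05 and 0.03. In bulk RNA of this kind, fewer dividing cells and less of these RNAs per cell cannot be told apart.

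**Figure D1:**
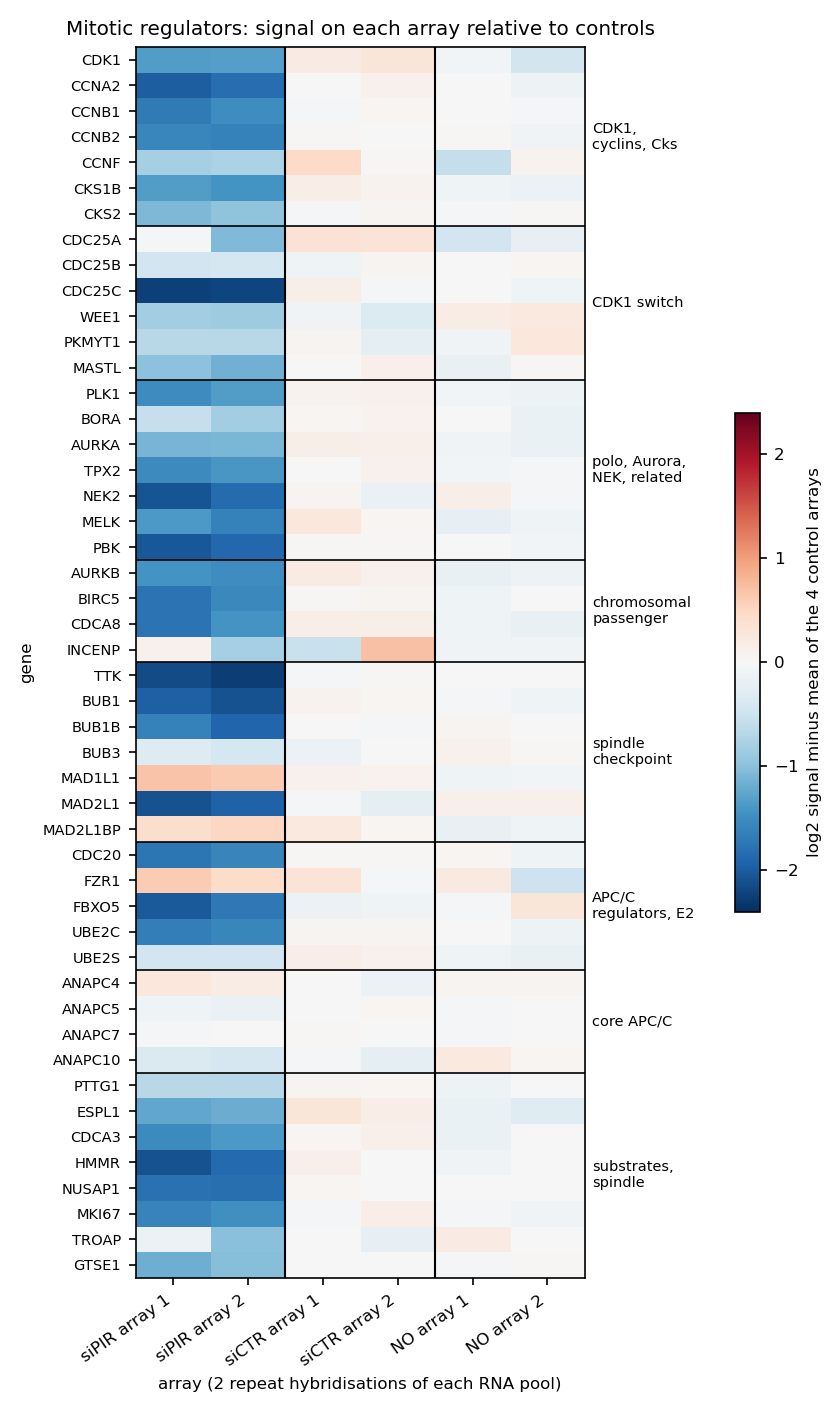
Log2 signal of the 48 measured genes (rows, grouped by role) on each of the 6 arrays (columns), relative to the mean of that gene on the 4 control arrays. The siPIR columns are blue for most rows, palest for the APC/C core and red for MAD1L1, MAD2L1BP and FZR1.

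Because the periodic genes were low together, the letters of their promoters are shown beside those of genes that were not. RefSeq promoter windows of 300 bases (GRCh38.p14, 250 bases before the annotated start and 50 from it) were at hand for 39 of the 49 genes. The other 10 are WEE1, PKMYT1, AURKA, TPX2, PBK, BIRC5, TTK, BUB3, UBE2C and TROAP. Stretches of 150 bases, from position -130 to 20 bases into the transcribed part, are printed 5' to 3' for 5 periodic genes with matches (PLK1, CCNB2, CDCA8, HMMR and CKS2), for MELK, a periodic gene without any, and for ANAPC5 and MAD1L1, which were not called. They were picked after their matches had been seen, from genes with 1 window. Capitals mark, on either strand, CCAAT, the letters that the factor NF-Y binds, and TTTGAA or TTCGAA, forms of the cell cycle genes homology region (CHR), which MuvB complexes bind. In CDCA8 the 2 kinds of match share letters, and in HMMR 2 CCAAT matches on opposite strands overlap and 2 CHR matches adjoin. The stretches lie at chr16:23678759-23678908 (plus strand), chr15:59105016-59105165 (plus strand), chr1:37692386-37692535 (plus strand), chr5:163460502-163460651 (plus strand), chr9:89311065-89311214 (plus strand), chr9:36572765-36572914 (plus strand), chr12:121352392-121352541 (minus strand) and chr7:2232926-2233075 (minus strand).
PLK1: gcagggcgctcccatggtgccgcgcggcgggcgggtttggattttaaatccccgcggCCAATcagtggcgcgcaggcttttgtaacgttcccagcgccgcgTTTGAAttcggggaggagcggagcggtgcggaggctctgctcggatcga
CCNB2: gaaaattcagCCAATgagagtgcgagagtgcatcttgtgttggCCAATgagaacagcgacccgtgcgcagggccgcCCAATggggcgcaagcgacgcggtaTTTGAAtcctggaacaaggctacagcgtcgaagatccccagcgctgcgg
CDCA8: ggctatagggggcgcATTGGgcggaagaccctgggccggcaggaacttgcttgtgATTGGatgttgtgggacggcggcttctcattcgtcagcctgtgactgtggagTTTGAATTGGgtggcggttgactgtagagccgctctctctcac
HMMR: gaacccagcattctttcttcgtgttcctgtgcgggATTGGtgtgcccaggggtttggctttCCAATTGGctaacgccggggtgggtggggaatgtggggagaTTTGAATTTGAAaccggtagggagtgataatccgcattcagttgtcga
CKS2: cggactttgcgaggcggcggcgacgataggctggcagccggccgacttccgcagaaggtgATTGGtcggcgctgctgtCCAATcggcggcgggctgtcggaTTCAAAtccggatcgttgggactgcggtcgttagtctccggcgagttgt
MELK: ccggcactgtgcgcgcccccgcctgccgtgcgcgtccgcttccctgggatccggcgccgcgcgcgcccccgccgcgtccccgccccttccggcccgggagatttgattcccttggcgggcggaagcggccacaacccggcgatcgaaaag
ANAPC5: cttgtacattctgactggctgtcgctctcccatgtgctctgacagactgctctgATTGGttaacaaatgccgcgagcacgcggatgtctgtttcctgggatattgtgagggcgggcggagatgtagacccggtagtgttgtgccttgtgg
MAD1L1: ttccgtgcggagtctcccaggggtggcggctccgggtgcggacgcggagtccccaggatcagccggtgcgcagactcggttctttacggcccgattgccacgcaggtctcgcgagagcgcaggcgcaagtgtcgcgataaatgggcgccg

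Both kinds of match were frequent among the periodic genes. A CHR match on either strand stood in 25 of their 41 windows (61%), against 16.4% of all 35116 windows and 12.2% of the windows of genes measured here. CCAAT stood in 33 of the 41 (80.5%), against 34.6% and 34.7%, and both in 23 (56.1%), against 6.38% and 4.87%. Short E2F forms (TTTCCCG or TTTGGCG, either strand) stood in 5 of 41 windows (12.2%), against 6.06% and 8.33%. In PLK1 and CCNB2 the CHR match began at position -29 from the start, and in the 41 windows 18 had one beginning between positions -50 and 9 (43.9%), against 3.37% of all windows. The 41 windows belong to 31 genes, some of which have several overlapping windows. Counted by gene, a CHR match stood in a window of 23 of the 31 periodic genes (74.2%), of 3 of 5 core APC/C genes (60%), of 2 of 3 genes with little periodicity (66.7%) and of 15.8% of all measured genes. Of the 8 windows of core APC/C genes 1 held CCAAT and 0 held both matches, and of the 5 windows of genes with little periodicity 0 held CCAAT. The 9 APC/C subunits outside the list differed from the core. Of their 17 windows 8 held CCAAT (47.1%) and 0 held a CHR match. These are counts of letters and say nothing about which factor was bound in these cells.

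Periodic genes with and without both matches differed from the controls by like amounts. Of 21 measured genes with both kinds of match in a window, all of them periodic, 16 were called lower than both controls, with median log2 differences of -1.58 and -1.37. Of 10 periodic genes with a window and without both, 6 were called (CCNA2, CCNB1, NEK2, MELK, AURKB and BUB1B), with medians of -1.61 and -1.34. The other 7 genes with a window and without both were MAD1L1, MAD2L1BP, FZR1 and the 4 core subunits, with 0 called and medians of 0.28 and 0.15. CCNF, CDC25B, BORA, INCENP and ESPL1 held both matches and were not called against both controls.

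**Figure D2:**
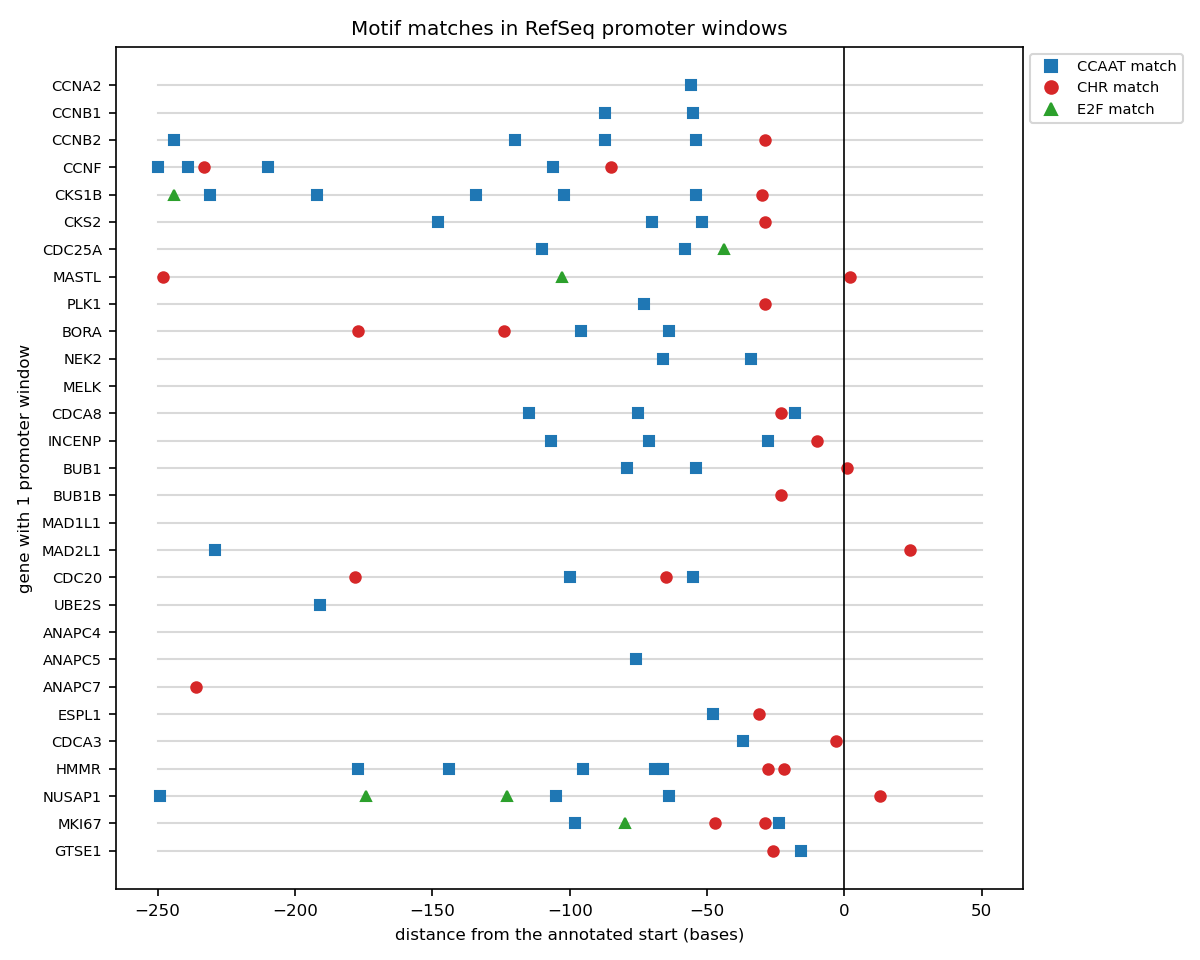
Positions of CHR, CCAAT and E2F matches (first base of the match, either strand) relative to the annotated start at 0, for measured genes with a single promoter window. In PLK1, CCNB2, CKS1B, CKS2, ESPL1 and HMMR a CHR match lies near -30 with CCAAT upstream of it, whereas MELK, MAD1L1 and ANAPC4 have no match.

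CDK1, its cyclins and its Cks subunits were all lower in siPIR, and 6 of the 7 were called against both controls. CCNA2, the cyclin that partners CDK2 and CDK1 from S phase on, gave 494 and 543 in siPIR, 1969.5 and 2096 in siCTR, and 1954 and 1796 in NO. Every siPIR array was below every control array, with a log2 difference of -1.96 from siCTR (-2.07 to -1.85 over the 4 pairs of arrays) and -1.84 from NO (-1.97 to -1.72), or 3.89-fold and 3.59-fold lower. The mitotic cyclins CCNB1 (-1.60 and -1.59) and CCNB2 (-1.61 and -1.57, whose promoter is shown above) differed from the 2 controls by almost the same amount. For CCNB2 a second, dim probe set gave 0.17 and 0.34. The mean over all its probe sets, which includes another below the measurement limit, was no longer 2-fold from NO (-0.43).

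CDK1, the kinase itself, gave 3035 and 3099.6 in siPIR, 8877 and 9489 in siCTR, and 7422 and 5719 in NO. Its NO arrays lay between those of siPIR and siCTR, and the difference was -1.58 from siCTR and -1.09 from NO, and the call against NO was lost without NO replicate 1 (-0.90). The other 2 bright probe sets of CDK1 differed by -1.72 and -1.68 from siCTR and by -1.72 and -1.65 from NO. Cks proteins are small docking subunits of CDKs: CKS1B differed by -1.50 and -1.26, and CKS2 by -1.04 and -1.001. CKS2 stands just inside the 2-fold limit and lost its call against a control in 5 of the 16 alternative settings. CCNF, an F-box cyclin that marks proteins for degradation in G2, gave 286 and 296 in siPIR, 693 and 510.2 in siCTR, and 338 and 532 in NO. It was called against siCTR (-1.02) and not against NO (-0.54), and its NO arrays were uneven.

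The phosphatases and kinases that set the CDK1 switch differed from one another. CDC25C, which removes the inhibitory phosphates from CDK1 at mitotic entry, was among the lowest of the whole list at 71.8 and 73.9 in siPIR, 397 and 349.5 in siCTR, and 355 and 332 in NO. Its log2 differences were -2.27 (-2.38 to -2.16) and -2.16 (-2.22 to -2.09), or 4.83-fold and 4.46-fold lower, and no control array came near the siPIR arrays. The gene is dim. A second probe set, measured through the control pools alone (73.6 and 65.7 in siPIR), gave -1.61 and -1.09. The mean over all its probe sets was -0.79 from NO, which includes a probe set below the measurement limit (0.88 from NO). CDC25B, a phosphatase that acts early in G2, gave 1339 and 1363 in siPIR, 1704 and 1920.0 in siCTR, and 1839.9 and 1888 in NO. It was lower than either control by less than 2-fold (-0.42 and -0.46).

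CDC25A, which acts on CDK2 as well and is made from late G1, gave 309 and 149 in siPIR, 408 and 394 in siCTR, and 230.0 and 276 in NO. Its siPIR arrays lay far apart, with the NO arrays between them, and the differences of -0.88 and -0.22 were not called. Another probe set of CDC25A was called against both controls, at -1.14 and -1.34. A further measured probe set, with siPIR arrays far apart, gave -0.98 and -0.69 and was not called. WEE1, the nuclear kinase that inhibits CDK1, gave 897 and 886 in siPIR, 1507 and 1284 in siCTR, and 1806 and 1899 in NO. It was called against NO (-1.05) and not against siCTR (-0.64). Its siCTR pool differed from NO by -0.41, and a second probe set gave only -0.22 and -0.29.

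PKMYT1, the membrane-bound partner of WEE1, gave 276 and 274 in siPIR, 456 and 372 in siCTR, and 415 and 522 in NO. The siPIR arrays were below all control arrays, but the differences of -0.58 and -0.75 stayed under 2-fold, and its only probe set can bind other transcripts (suffix _x_at). MASTL, the Greatwall kinase that keeps the opposing phosphatase PP2A in check, gave 357 and 317 in siPIR, 718 and 776 in siCTR, and 624 and 728 in NO. It was called against siCTR (-1.14) and lay just outside the limit against NO (-0.99).

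Of the polo, Aurora, NEK and related genes, 5 of 7 were called lower than both controls. PBK, a kinase of dividing cells also known as TOPK, gave 1614 and 1774 in siPIR, 6760.3 and 6761 in siCTR, and 6538 and 6328 in NO. Both siPIR arrays were far below all control arrays, by -1.99 (-2.06 to -1.93) and -1.92 (-2.01 to -1.83) on the log2 scale. NEK2, a kinase that helps to part the centrosomes, was of like size (-1.91 and -2.001). MELK, a kinase of proliferating cells whose promoter stretch above holds neither motif, differed by -1.65 and -1.36, PLK1, the polo kinase of mitotic entry and spindle assembly, by -1.52 and -1.34, and TPX2, the spindle protein that activates Aurora A, by -1.52 and -1.41.

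AURKA, the kinase of the spindle poles, gave 1446 and 1475 in siPIR, 3468 and 3439 in siCTR, and 2971 and 2817 in NO. Pools did not overlap, and the gene was called against siCTR (-1.24) but stayed short of the limit against NO (-0.98). A second probe set of nearly the same brightness gave -1.49 and -1.24 and was called against both. BORA, the cofactor through which Aurora A activates PLK1, gave 686 and 559 in siPIR, 1042 and 1073 in siCTR, and 1013 and 905 in NO. It was lower on every siPIR array, by less than 2-fold (-0.77 and -0.62).

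The chromosomal passenger complex corrects faulty attachments at centromeres and later serves cytokinesis. Its kinase AURKB (-1.62 and -1.32) and its subunits survivin (BIRC5) and borealin (CDCA8, -1.75 and -1.47) were called lower than both controls. BIRC5 gave 889 and 1041 in siPIR, 3104 and 3165 in siCTR, and 2825 and 3060.2 in NO, a difference of -1.70 (-1.83 to -1.57) and -1.61 (-1.78 to -1.44). Its 4 measured probe sets all had negative differences, from -1.70 to -0.84 against siCTR. The scaffold INCENP was dim, at 176 and 91.5 in siPIR, 111 and 270.0 in siCTR, and 153 and 152 in NO. Its arrays overlapped between pools, so its differences of -0.43 and -0.25 have no settled direction.

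Spindle checkpoint genes formed 2 sets. The periodic ones TTK, BUB1, BUB1B and MAD2L1 were called lower than both controls (4 of 7 genes), whereas BUB3, MAD1L1 and MAD2L1BP, for which little periodicity is known, were not. TTK, the MPS1 kinase that starts checkpoint signalling at kinetochores, gave 211 and 193 in siPIR, 925 and 972 in siCTR, and 956 and 938 in NO. It was 4.60-fold lower than siCTR and 4.59-fold lower than NO, and its 4 control arrays lay close together, between 925 and 972. BUB1, a kinetochore kinase, differed by -2.09 and -1.95, its relative BUB1B (BUBR1), a part of the inhibitor that holds CDC20, by -1.73 and -1.79, and MAD2L1 (MAD2), which binds CDC20, by -1.89 and -2.13.

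BUB3, the common partner of BUB1 and BUB1B, gave 5450.5 and 5037 in siPIR, 6154 and 6732 in siCTR, and 7276 and 6928 in NO. It was lower on the siPIR arrays by less than 2-fold (-0.30 and -0.44), read on a probe set that can bind other transcripts. Other bright probe sets of BUB3 gave -0.62 to -0.43 from siCTR and -0.76 to -0.25 from NO. A dim measured probe set gave -0.05 and -0.69, and none of these was called. MAD1L1 (MAD1), which recruits MAD2 to kinetochores, gave 4886 and 4756 in siPIR, 3279.5 and 3234 in siCTR, and 2828 and 2910.2 in NO. Its siPIR arrays were above all control arrays, by 0.57 and 0.75, while MAD2L1 in the same pool was low.

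MAD2L1BP (p31comet), which takes MAD2 out of the checkpoint complex, gave 3705 and 3890.1 in siPIR, 3252 and 2843 in siCTR, and 2425 and 2574 in NO. It too was highest in siPIR (0.32 and 0.60), though siCTR was above NO by 0.28. Neither MAD1L1 nor MAD2L1BP reached 2-fold, and at a 1.5-fold limit 0 genes of the list were called higher against both controls.

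Of the 5 coactivators, inhibitors and E2 enzymes of the APC/C, 3 were called lower than both controls. Of the 4 measured core subunits 0 were, near the 3.2% of all measured genes. CDC20, the coactivator of metaphase, differed by -1.69 and -1.63, and UBE2C, the E2 enzyme that starts its ubiquitin chains, by -1.68 and -1.55. FBXO5 (EMI1), which inhibits the APC/C in S and G2, gave 362 and 447 in siPIR, 1342 and 1377 in siCTR, and 1456 and 1816 in NO. No arrays overlapped, with differences of -1.91 to -1.57 over the pairs with siCTR and -2.31 to -1.69 over those with NO, though a second probe set that can bind other transcripts gave only -0.66 and -0.77. UBE2S, which lengthens the chains, gave 5499 and 5478 in siPIR, 8493 and 8154 in siCTR, and 7071 and 6695 in NO. It was lower than each control by less than 2-fold (-0.60 and -0.33).

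FZR1 (CDH1), the coactivator of late mitosis and G1, gave 430.1 and 380.0 in siPIR, 351 and 271 in siCTR, and 324 and 197 in NO. The siPIR arrays were the highest (0.39 and 0.67), but arrays of 1 pool lay far apart, its probe sets ran from -0.66 to 0.42 against siCTR, and the call rule was not met. Without NO replicate 1 alone it was called higher against NO (1.01).

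The 4 measured core subunits were within 2-fold of the controls, with ANAPC10 below both. ANAPC5 gave 6366 and 6126 in siPIR, 6861 and 7052 in siCTR, and 6747 and 6827 in NO, differences of -0.16 and -0.12, with other probe sets at up to 0.54 against siCTR. ANAPC7, a subunit with tetratricopeptide repeats, gave 1036 and 1056 in siPIR, 1085 and 1079.8 in siCTR, and 1050.3 and 1064 in NO. On this probe set the pools were nearly level (-0.05 and -0.01). A second, dimmer probe set gave 0.01 and -0.38, with siCTR at -0.39 from NO.

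ANAPC4, a scaffold subunit, gave 1522 and 1440.2 in siPIR, 1283 and 1152 in siCTR, and 1338 and 1335 in NO. It was slightly above the controls (0.28 and 0.15), on a probe set that can bind other transcripts, and its other probe set gave -0.08 and -0.17. ANAPC10 (DOC1), which helps to bind substrates, gave 764 and 741 in siPIR, 944 and 825 in siCTR, and 1151 and 1011 in NO. At -0.23 and -0.52 it was the lowest of the core, and siCTR differed from NO by -0.29. Its other measured probe set, a dim one, gave -0.54 and -0.68 and was not called. ANAPC10 was below both controls in each of the 16 alternative settings as well. The class median of -0.10 against siCTR turned to 0.01 as a mean over probe sets, while that of -0.07 against NO became -0.11.

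Of the 9 further APC/C subunits of a fixed list, 0 were called in either comparison. That is near the share of all measured genes, of which 4.21% and 5.4% were called lower and 3.66% and 3.6% higher. The medians of the 9 subunits, 0.01 and 0.03, were near the controls, but ANAPC16 and CDC23 were lower. ANAPC16 was the lowest of them, at 2302 and 2149 in siPIR, 3570.1 and 3823 in siCTR, and 3881 and 3869 in NO. It differed by -0.73 and -0.80, next to CDC23 at -0.41 and -0.45, while CDC26, CDC27 and ANAPC13 were within 0.14 of both controls.

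**Figure D3:**
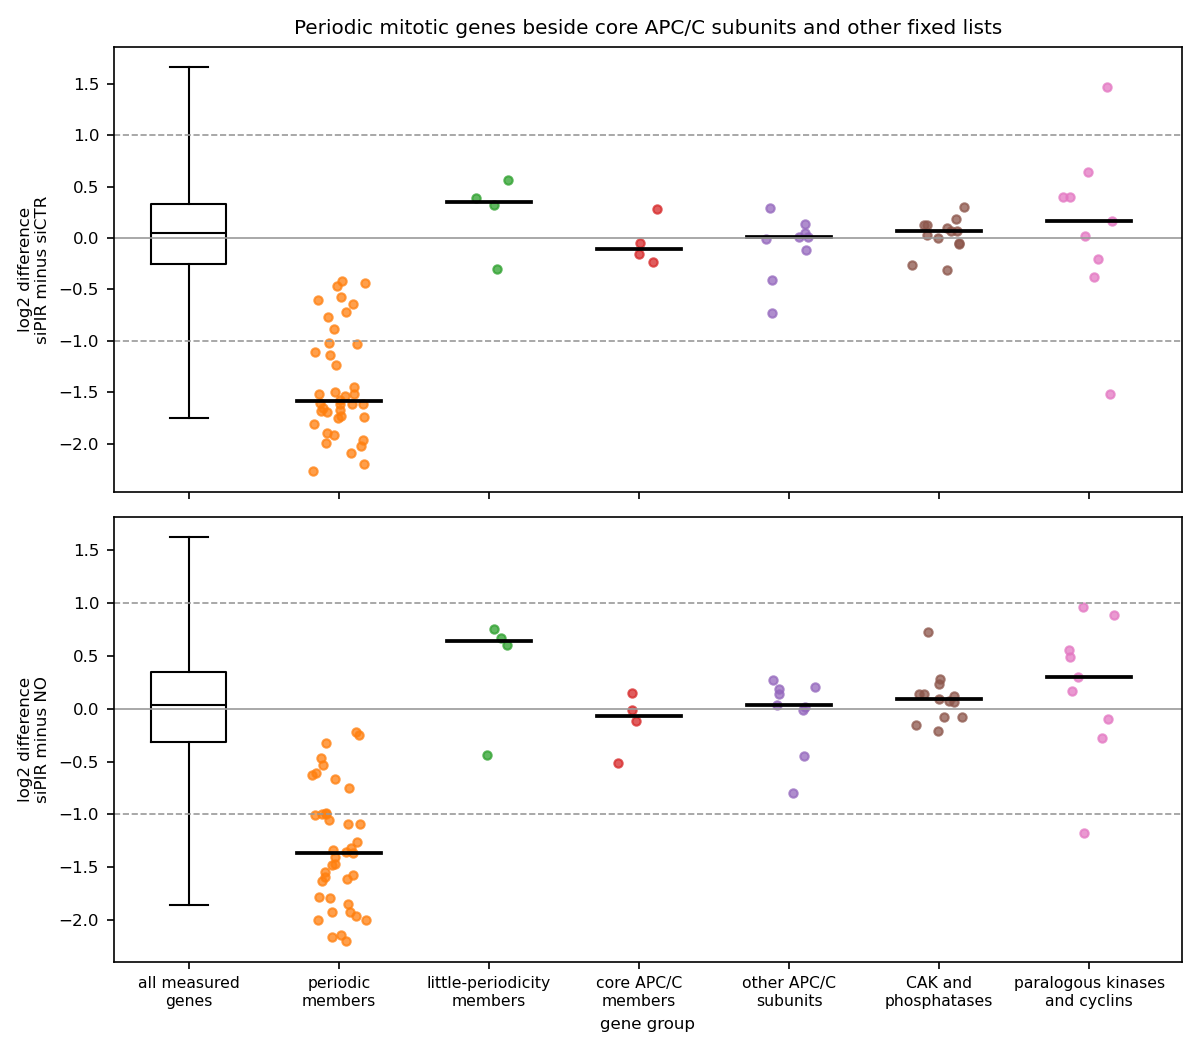
Log2 differences of siPIR from siCTR (upper panel) and from NO (lower panel) for single genes (points) with group medians (bars), beside all 13053 measured genes (box: quartiles, whiskers: 1st to 99th percentile). Periodic genes lie below 0 without exception, with medians of -1.59 and -1.36. The APC/C groups have medians near 0, with ANAPC16 the lowest of their genes (-0.73 and -0.80). Dashed lines mark 2-fold.

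Among the substrates of the APC/C and spindle genes, 5 of 8 were called lower than both controls. HMMR, a hyaluronan receptor that also organises spindle poles, gave 453 and 530.2 in siPIR, 2096 and 1921 in siCTR, and 1821 and 1909.6 in NO. Its differences were -2.02 (-2.20 to -1.85) and -1.92 (-2.06 to -1.77), with no overlap of arrays. NUSAP1, a microtubule-binding spindle protein, differed by -1.81 and -1.78, MKI67, the proliferation antigen Ki-67, by -1.61 and -1.47, CDCA3, which promotes degradation of WEE1, by -1.54 and -1.37, and GTSE1, a microtubule-associated protein, by -1.11 and -1.09. The 4 measured probe sets of GTSE1 were all called against both controls (-1.48 to -1.04 from siCTR, -1.18 to -1.04 from NO). Averaged over all its probe sets, GTSE1 was at -0.96 and -0.77 and was not called. That mean includes a probe set below the measurement limit (-0.09 and 0.53). The 4 measured probe sets of MKI67 all had negative differences, -1.64 to -0.79 against siCTR.

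Separase and its inhibitor differed in size. ESPL1, the separase that cuts cohesin, gave 288 and 296 in siPIR, 846 and 766 in siCTR, and 615 and 559 in NO. It was called against siCTR (-1.45) and stopped just outside the limit against NO (-0.99), where a second probe set gave -1.91 and -1.43. PTTG1, the securin that restrains it, gave 11934 and 12035 in siPIR, 19912 and 19587 in siCTR, and 17583 and 19086 in NO. It was lower on the siPIR arrays by less than 2-fold (-0.72 and -0.61), on a probe set that can bind the near-identical PTTG copies.

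TROAP, a spindle-associated protein, gave 476 and 260.1 in siPIR, 524 and 454 in siCTR, and 599.9 and 528 in NO on its brightest probe set. Its siPIR arrays lay far apart and overlapped those of siCTR, and the differences of -0.46 and -0.67 were not called, whereas its other measured probe set gave -1.58 and -1.67 and was called against both controls.

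**Figure D4:**
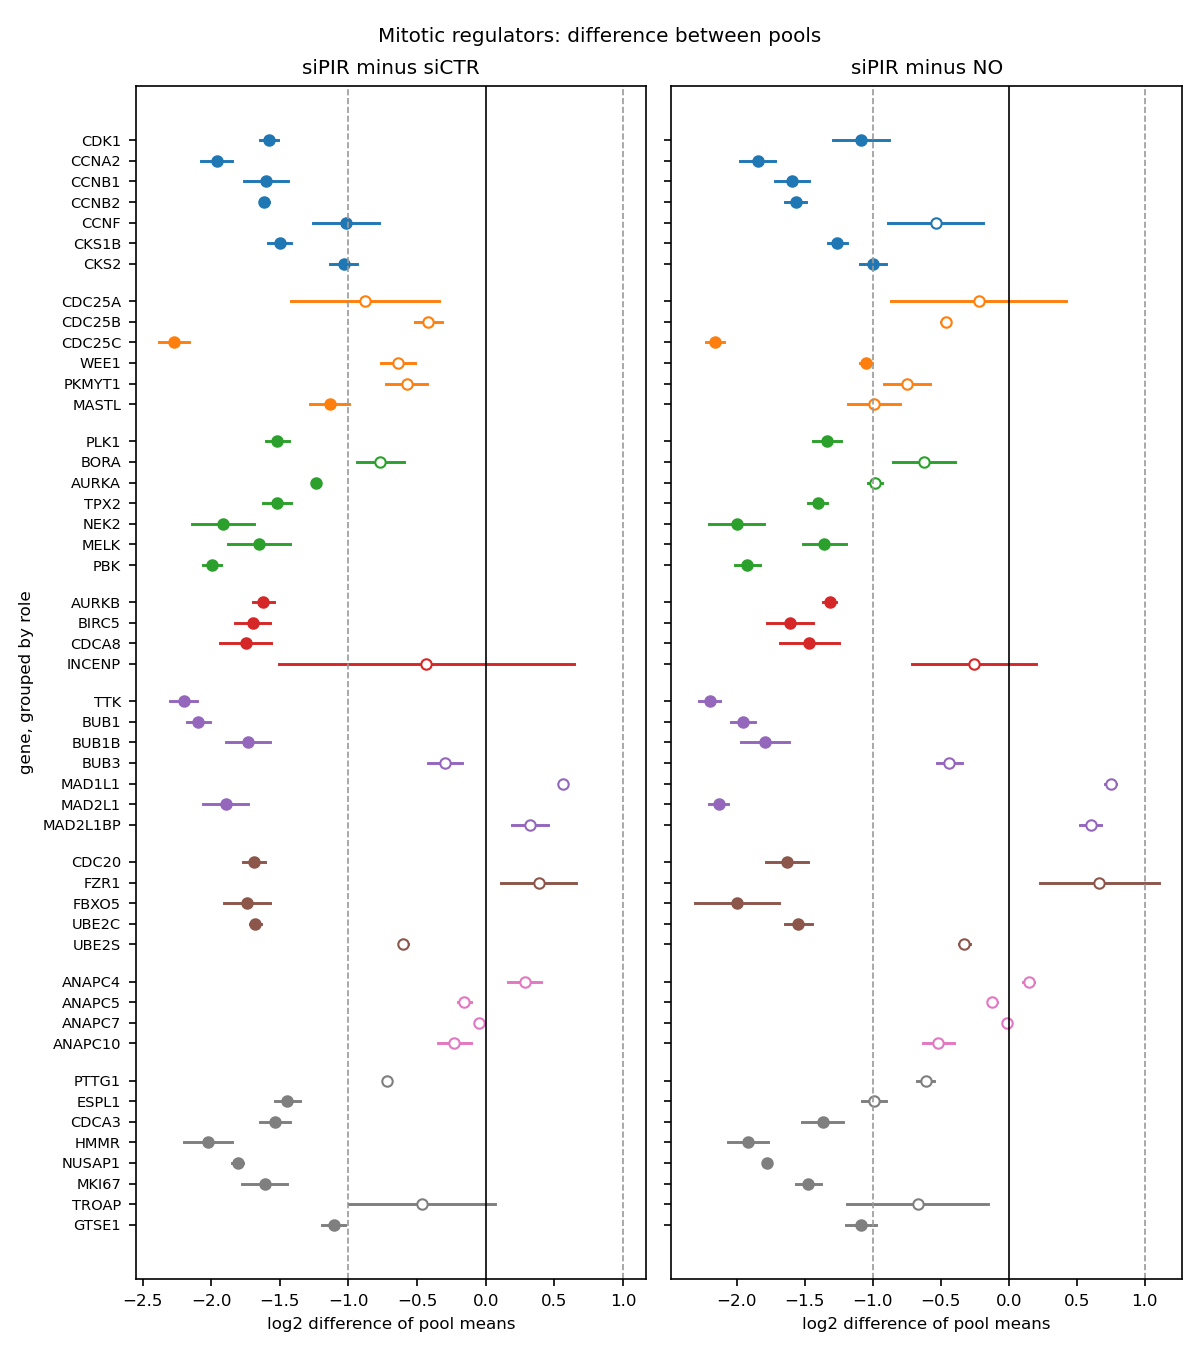
Log2 difference of pool means for each measured gene, siPIR minus siCTR (left) and siPIR minus NO (right). Lines span the 4 pairs of arrays, filled points are called by the 2-fold and no-overlap rule, and colours mark the roles. From NO, MASTL (-0.99), ESPL1 (-0.99) and AURKA (-0.98) stand just outside the limit and CKS2 (-1.001) just inside it.

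Arrays hold several probe sets for many of these genes, which read the same RNA pools at other places of the transcript. Of 93 measured probe sets of the list, 71 belong to the periodic class, and 70 of these 71 lay below each control. The exception was the second probe set of CCNB2. Of the 31 periodic probe sets not used for the gene values, 23 were called lower than both, beside 3.11% of all 25089 measured probe sets. The 31 had median differences of -1.49 and -1.24. Among those called, probe sets of AURKB (74.1 and 17.2 in siPIR) and CDC25C (73.6 and 65.7) passed the measurement limit through control pools alone. The 11 measured probe sets of core APC/C genes had medians of -0.01 and -0.04, and 0 were called. Probe sets of 1 gene share the same labelled target and are not replicates of the conditions.

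**Figure D5:**
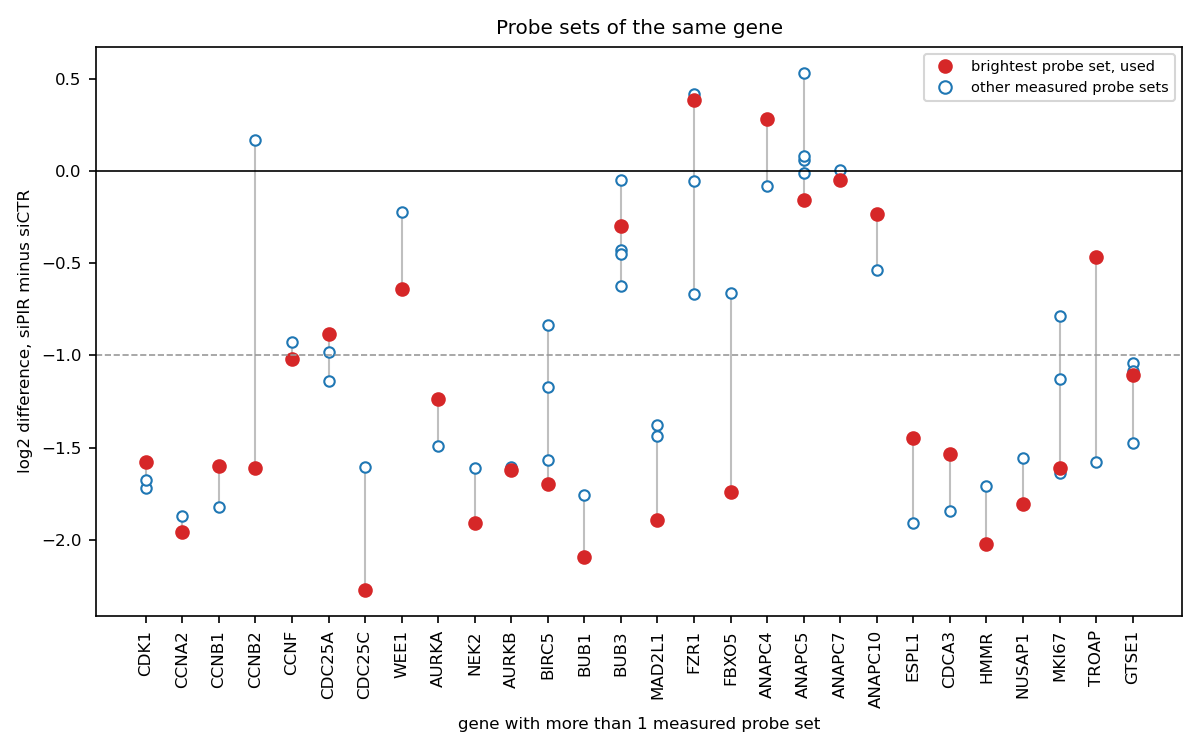
Log2 difference of siPIR from siCTR for every measured probe set of genes that have more than 1. Filled red points are the brightest probe sets used in the text and open points the others. Spread within a gene is widest for CCNB2, TROAP, FBXO5 and FZR1.

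Between the controls, 0 of the 48 genes were called, beside 2.4% of all measured genes lower and 0.996% higher in siCTR than in NO. Their arrays did not overlap for 33 genes, beside 52.9% of all. The periodic genes had a median of 0.11, and 32 of the 40 were higher in siCTR than in NO. The largest such differences were those of CDC25A (0.66), CDK1 (0.49), CCNF (0.48) and ESPL1 (0.45), and the most negative was that of WEE1 (-0.41). The comparisons of siPIR with siCTR and with NO share the siPIR pool and are given side by side.

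A fit across pools was possible only with siCTR and NO taken as 2 control pools, which treats the difference between kinds of control as the spread (limma, 1 residual degree of freedom). Over all 13053 measured genes, 0 passed an adjusted p of 0.05 (Benjamini-Hochberg), members of the list included, and the smallest adjusted p was 0.135. At an unadjusted p under 0.05, 35 of the 48 genes were lower, all of them periodic, beside 10.9% of all measured genes. Over the 8271 bright genes alone (a pool mean above 458.4 signal units), where 25.6% passed in either direction, 36 of 44 bright members passed limma's adjusted p of 0.05, 35 of them lower. In that fit TTK had a log2 difference of -2.20 ± 0.15 (SE) with an adjusted p of 1.46e-05 in limma. MAD1L1 was the one that was higher, at 0.66 ± 0.16 (SE) with a limma adjusted p of 0.0129. The 8 bright members that did not pass were CDC25B, BUB3, MAD2L1BP, UBE2S and the 4 core APC/C subunits, with limma adjusted p-values of 0.0577 to 0.902. TTK counted as bright through its control pools alone (means of 948.55 in siCTR and 946.55 in NO, beside 202.1 in siPIR). PLK1, NEK2, MKI67, ESPL1 and FBXO5 were among further lower genes that entered only through control pools. With the choice of genes deciding the outcome, this fit settles no single gene.

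Fixed lists of partners and relatives were read the same way. Of 13 genes for the CDK-activating kinase (CDK7, CCNH and MNAT1) and for phosphatases that oppose CDK1 with their regulators, 0 were called. That is near the share of all measured genes called lower (4.21% than siCTR, 5.4% than NO). The medians of the 13 genes were 0.06 and 0.09. ENSA and ARPP19, the substrates of MASTL, differed by 0.18 and 0.06 and by 0.30 and 0.28. Of 9 measured paralogous kinases and cyclins, PLK4, the polo kinase of centriole duplication, was called lower than both controls, at 370.5 and 385 in siPIR, 1034 and 1147 in siCTR, and 986 and 746 in NO. Its differences were -1.51 and -1.17, near those of PLK1, while the stress-responsive PLK2 (0.40 and 0.49) and PLK3 (0.64 and 0.89) were above both controls without reaching 2-fold. CCNB3, a meiotic cyclin, was called higher against siCTR alone (1.47). It passed the measurement limit only through siPIR (mean 73.8), with the means of siCTR (26.1) and NO (38.9) below the limit. NEK6, a mitotic kinase, differed by 0.40 and 0.55.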

How the data were processed

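The authors deposited a signal intensity per probe set, on a linear scale, for each of the 6 arrays, made with GCOS per the submitters' processing notes (version and settings: not given in the sources used here). Leaving out the lowest and highest 2% of values, every array had a mean of 500, so differences in total signal had been scaled away. All 6 columns were matched to samples through their labels, and 0 were left over. Values were taken as log2(value + 5.4), the pseudocount being their 10th percentile, which understates differences of dim genes, and arrays of a pool were averaged on that scale. The annotation gave 41097 of the 54675 probe sets 1 gene, 1801 several, and named none for 11777. Symbols were updated through Entrez identifiers to RefSeq (GRCh38.p14), with 99.9% matched. A gene took its probe set with the highest mean log2 value and was measured when a pool mean exceeded the overall median signal of 70.2 (13053 genes). The call rule and limma 3.58.1 (R 4.3.3, on pool means) were tested on simulated data, and the other steps used Python 3.11.15. Precision is limited by the number of pools and arrays. The members, their roles and classes (from general knowledge of their periodicity) and the further lists were chosen with earlier results of these data known. Every member is accounted for, and array values are printed for the member of each role with the largest and the smallest difference and for those not called against both controls, with CDK1 added. The alternatives tried were other pseudocounts, probe set choices, filters, normalizations and a fold limit, and each array left out.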

Additional observations from a re-analysis of the deposited data

How the results depend on the processing

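Over 16 alternative settings, 22 of the 27 genes called lower than both controls kept that call in every setting in which they were measured, and 0 called values changed sign. CDK1, CCNB2, CKS2, CDC25C and GTSE1 lost it in at least 1. The number of genes lower than both controls was 25 to 33 over the settings other than a left-out array, and 26 to 28 with an array left out. With an array left out, 30 to 31 were lower than siCTR and 28 to 29 lower than NO. In the same settings the periodic median was -1.59 to -1.54 against siCTR, -1.43 to -1.33 against NO and 0.075 to 0.11 for siCTR against NO. The core APC/C median was -0.11 to -0.089, -0.08 to -0.06 and -0.09 to -0.02, and 0 to 1 genes were called higher than NO. The mean over probe sets took in all probe sets of a gene, measured or not. By it the periodic medians were -1.41, -1.23 and 0.14 in those 3 comparisons and the core medians 0.013, -0.11 and -0.15. Without _x_at and _s_at probe sets, which left 45 genes measured, the core medians were 0.15, -0.18 and -0.27 and the periodic median of siCTR against NO was 0.13. Quantile normalization gave 0.092 for the latter, and median centring gave -0.083 for the core against siCTR. At a 1.5-fold limit 3 genes were higher than NO and 1 was higher in siCTR than in NO, and 979 of all genes, against 418, were lower than both controls. The limma fit passed 0 genes in all but 1 setting, and 2114 genes with 36 of the list over bright genes alone. There limma's total degrees of freedom were 11.04, against 3.32 over all measured genes. The choice of the probe set by mean signal, added after seeing the data, gave AURKA a call against both controls. No paired analysis was possible because the replicate numbers mark repeat arrays of 1 mixture, which were averaged within each pool. Signals near the limit of 70.2 restrict what can be said of CDC25C in siPIR and of INCENP.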

Other observations

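Among the 200 measured genes with the lowest differences of siPIR from siCTR, 20 were genes of this list, and among the 200 lowest against NO, 11 were. PIR ranked lowest in both, CDC25C stood at rank 31 and 51 and TTK at rank 35 and 44. Between duplicate arrays the median absolute log2 difference of the list was 0.12 in siPIR, 0.09 in siCTR and 0.08 in NO, beside 0.14, 0.13 and 0.12 over all measured genes. The largest duplicate difference of the list, 1.24, was that of INCENP on the siCTR arrays.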
